A study of Danio rerio with 6 samples.

Results

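Blood vessel endothelial genes were followed in zebrafish embryos whose *dancr* promoter had been deleted. The 10 genes are *etv2*, *fli1a*, *kdrl*, *flt1*, *flt4*, *tie1*, *tek*, *cdh5*, *pecam1* and *egfl7*. They were taken by gene name from a table of 31953 Ensembl genes, and each name matched 1 row. RNA was sequenced from whole embryos at 30 hours post-fertilisation (hpf), in 3 libraries of *dancr* del F0 crispants and 3 libraries of mock control embryos. Crispants had received Cas9 with a pool of 4 guide RNAs against the *dancr* promoter at the single cell stage, and carry mosaic deletions. They were Class I and II embryos, that is embryos picked for a severe phenotype with poorly formed trunk and tail, pooled at about 30 embryos a group. Mock control embryos were injected in the same way with a mixture that had no *dancr* crRNA. The labels give no strain for either group, and the study's methods name wild type AB as its zebrafish unless otherwise stated. All 6 libraries were polyA selected and strand-specific. The study gives the libraries of a group as biological replicates, and the labels do not say which embryos went into each, so p-values measure the spread between these libraries.

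The 4 crRNAs are shown because every crispant library shares them. They are given 5′ to 3′ as the study lists them, and their positions in the genome were not analysed here.
dancr-1: actccccaaatcatctgaag
dancr-2: tctgagccccctgactgaag
dancr-3: tttgcacaatccctgagagc
dancr-4: aaagcccactataactgttc

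Endothelial cells line blood vessels and arise from angioblasts, mesodermal precursors that coalesce into the first artery and vein of the trunk. ETS transcription factors start this programme, VEGF receptors and Tie receptors read growth signals, and cadherin junctions hold the vessel wall together. In zebrafish, blood circulates by the stage sampled here and sprouts between the somites are forming the trunk vessels. In RNA from whole embryos, fewer endothelial cells and less RNA per endothelial cell cannot be told apart.

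No difference between crispant and mock control embryos was called for any of the 10 genes, which does not show that their levels were alike. Counts were expressed as CPM, that is relative to the library total after TMM scaling. For each of the 20812 genes that passed a filter on low counts, edgeR's quasi-likelihood test gave a p-value, and these were adjusted over all of them (Benjamini-Hochberg). All 10 genes passed the filter, with 200 counts or more in every library. To be called, a gene needed an adjusted p no higher than 0.05 and a log2 fold change (log2FC, crispant over mock control) of 1 or more in size. None of the 10 was called by edgeR, by DESeq2 or by limma-voom with sample quality weights. The share called among all genes tested was 0%, 0.769% and 1.56% with these 3 tools, and 0%, 0.836% and 2.31% with no minimum fold change. Without mock control replicate 3, edgeR called 0.0935% of 21388 genes and none of the 10. In the edgeR comparison 0 of the 10 had an unadjusted p below 0.05, where 3.01% of all genes tested were higher and 2.47% lower in crispants at that limit. DESeq2 had 0 of the 10 at that limit (3.55% of all genes higher, 3.03% lower), as had edgeR with a replicate block (2.63% higher, 1.97% lower). Limma-voom had 3 of the 10 lower and none higher, where 9.24% of all genes were lower and 9.87% higher. Of the log2FC values, 5 were above 0 and 5 below, with a median of -0.01, beside a median of -0.04 over all genes tested. These medians were -0.12 and 0.01 without mock control replicate 3. Chosen with earlier results of these data known, the 10 genes are described by counts and medians only.

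No row of the table is named *dancr*, so its level was not analysed here and the labels of the groups were not checked against it. Total counts on genes ran from 33841805 to 40515803 per library. Mock control replicate 3 stood apart. With TMM it was scaled by a factor of 0.749, where the other 5 libraries had 0.988 to 1.14. Over genes, its log2(CPM + 1) deviated from the remaining libraries with an SD of 0.81, where each of the others had 0.33 to 0.46.

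Summed over the 10 genes, the level was 227.4, 260.6 and 228.5 CPM in crispant replicates 1, 2 and 3, against 250.1, 279.1 and 235.9 CPM in mock control replicates 1, 2 and 3. The mean was 239 ± 18.8 CPM in crispants and 255 ± 22.1 CPM in mock control embryos (SD, n = 3 each), and the groups overlapped. Scaling changed the order of the libraries. As CPM of the plain library total, without TMM factors, the sum was 243, 257 and 261 in crispants, against 267, 289 and 177 in mock control embryos. The low value was that of mock control replicate 3, and all crispants lay below mock control replicates 1 and 2. With TMM, crispant replicate 2 lay above mock control replicate 1.

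**Figure D1:**
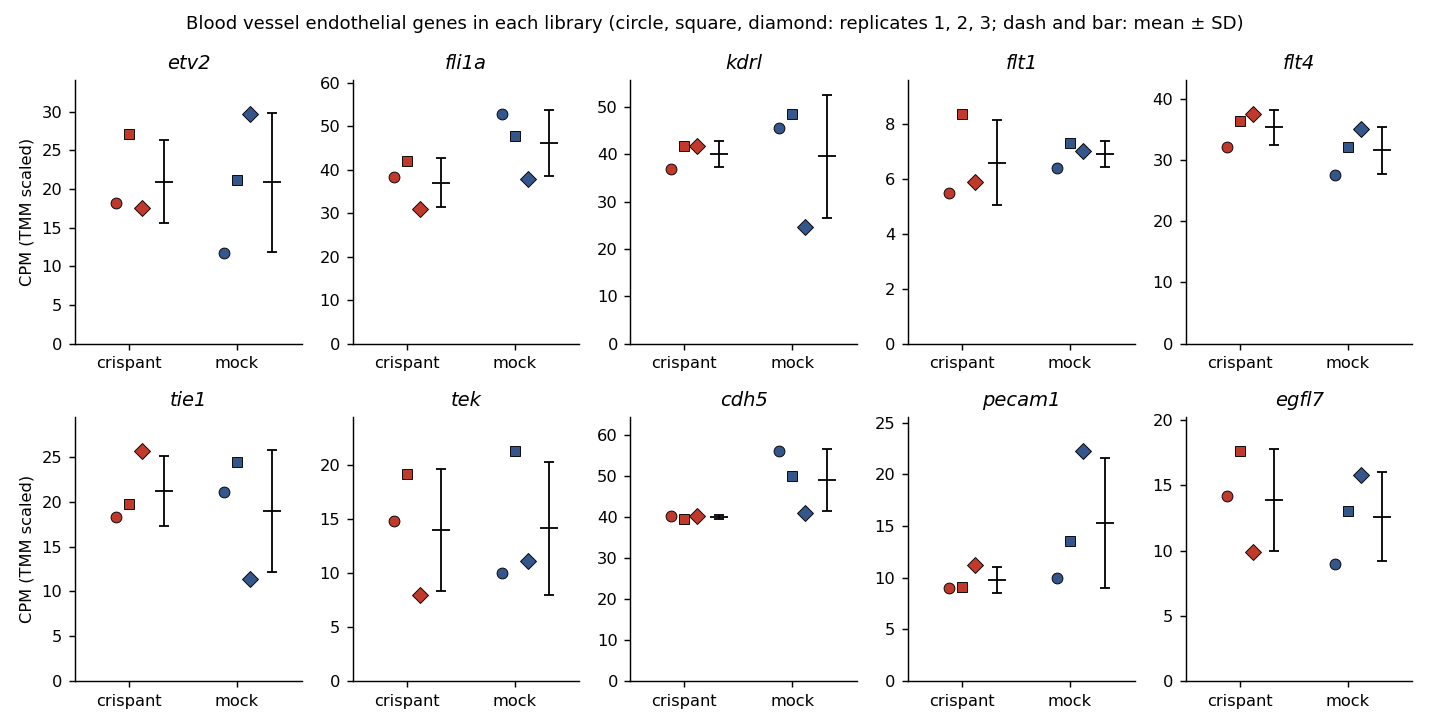
CPM of each endothelial gene in 3 crispant libraries (red, left) and 3 mock control libraries (blue, right), scaled by TMM. Circles, squares and diamonds are replicates 1, 2 and 3, and the dash and bar give the mean ± SD. Only for cdh5 do all crispants lie below all mock control libraries, and mock control replicate 3 is the lowest library for kdrl and tie1 and the highest for etv2 and pecam1.

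Levels can be compared between genes only per length, for which the FPKM values of the deposited table were used. Averaged over the 6 libraries, *etv2* was highest at 14.2 ± 4.42 FPKM and *fli1a* followed at 12.8 ± 2.46 FPKM (SD, n = 6). Next came *egfl7* at 9.53 ± 2.40, *flt4* at 7.42 ± 0.783, *kdrl* at 6.69 ± 1.44 and *cdh5* at 6.42 ± 1.02 FPKM. Lower were *pecam1* at 5.18 ± 2.05, *tie1* at 4.56 ± 1.17 and *tek* at 3.72 ± 1.42 FPKM. *flt1* was lowest, at 1.21 ± 0.187 FPKM. From *etv2* down to *tek*, the ranges over 6 libraries overlapped between every pair of neighbours in this order. Only the last step was clear of its spread, with 2.09 FPKM in the lowest library for *tek* and 1.499 FPKM in the highest for *flt1*. In a mean over 5 libraries without mock control replicate 3, chosen after seeing the data, *fli1a* at 13.1 FPKM and *etv2* at 13.0 FPKM had nearly the same mean, and *tie1* at 4.96 FPKM stood above *pecam1* at 4.40 FPKM. Among all genes tested, the mean level of *etv2* lay at percentile 77.7 and that of *flt1* at percentile 26.5. The level of *flt1* joins all its isoforms, including a soluble form known to bind Vegf without signalling, since the table has 1 row per gene.

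**Figure D2:**
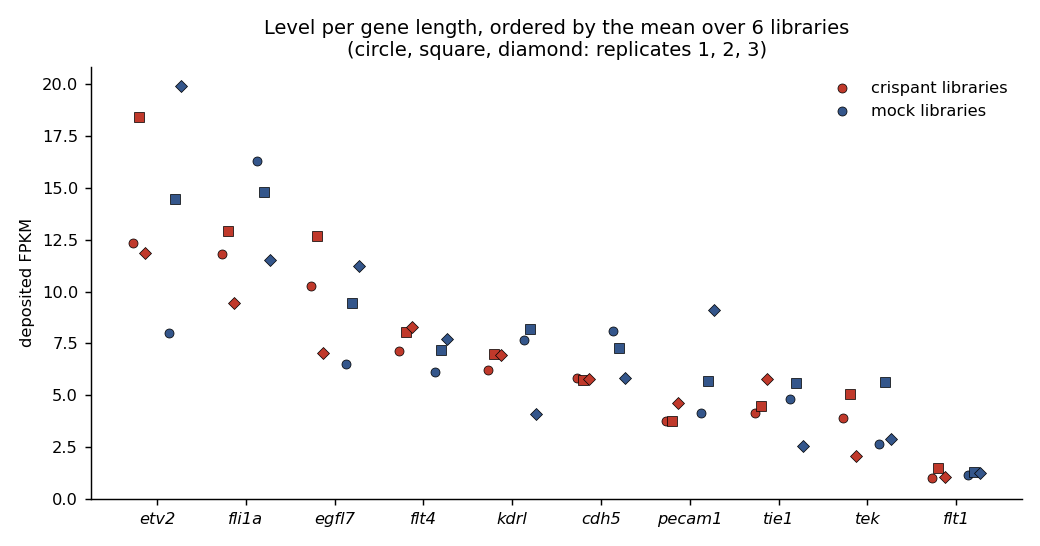
Deposited FPKM, a level per gene length, for each endothelial gene, ordered by the mean over 6 libraries. Crispant libraries (red) stand left of mock control libraries (blue), with circles, squares and diamonds for replicates 1, 2 and 3. The order runs from etv2 at 14.2 FPKM to flt1 at 1.21 FPKM, and neighbouring genes overlap except at the last step.

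Of the 2 ETS transcription factors, *etv2* had the same mean level in both groups and *fli1a* was somewhat lower in crispants. *etv2*, which commits mesoderm to the endothelial fate, is annotated in the GRCz10 build on the minus strand of chromosome 16 between 42058781 and 42063826. It had 18.2, 27.1 and 17.6 CPM in crispants, against 11.7, 21.2 and 29.7 CPM in mock control embryos. The crispant values all lay within the mock control range. This gave a log2FC of 0.01 (standard error 0.36, 95% interval -0.82 to 0.83). It was 0.36 without mock control replicate 3 and -0.28 without mock control replicate 1.

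*fli1a*, an ETS factor kept on in endothelial cells and widely used to mark vessels, lies on the plus strand of chromosome 18 from 48429318 to 48493178. It had 38.3, 42.0 and 30.9 CPM in crispants, against 52.8, 47.8 and 38.0 CPM in mock control embryos. Mock control replicate 3 fell among the crispants and the other mock control libraries lay above all of them. For *fli1a* the log2FC was -0.32 (standard error 0.22, 95% interval -0.82 to 0.18), with an adjusted p of 0.999 by edgeR's quasi-likelihood test. Leaving out mock control replicate 3 gave -0.43, with an unadjusted p of 0.0369 and an adjusted p of 0.409 in the same edgeR test.

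The 3 VEGF receptors did not move in 1 direction. *kdrl*, the main receptor for Vegfa in zebrafish vessels, lies on the minus strand of chromosome 14 from 32643455 to 32704641. It had 36.9, 41.7 and 41.7 CPM in crispants, against 45.5, 48.5 and 24.7 CPM in mock control embryos. The crispants were close to each other, and the mock control libraries lay on both sides of them, with mock control replicate 3 the lowest of all 6. For *kdrl* the log2FC was 0.02 (standard error 0.27, 95% interval -0.61 to 0.64). Leaving out mock control replicate 3 gave -0.22 (95% interval -0.57 to 0.14), with all crispants below both remaining mock control libraries.

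*flt1*, a receptor that limits Vegfa signalling, lies on the minus strand of chromosome 24 from 21605636 to 21663645. It had 5.48, 8.35 and 5.90 CPM in crispants, against 6.40, 7.30 and 7.002 CPM in mock control embryos. The crispant values spread around the narrow mock control range, and the log2FC was -0.07 (standard error 0.30, 95% interval -0.75 to 0.61). *flt4*, the receptor for Vegfc in venous and lymphatic sprouting, lies on the minus strand of chromosome 14 from 15511491 to 15651094. It had 32.1, 36.3 and 37.5 CPM in crispants, against 27.5, 32.1 and 35.1 CPM in mock control embryos. The groups overlapped with the crispants toward the upper end. Its log2FC was 0.16 (standard error 0.20, 95% interval -0.30 to 0.62), and leaving out any 1 library gave 0.07 to 0.26.

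The Tie receptors had similar mean levels in both groups and varied widely within them. *tie1*, which encodes a receptor related to Tie2, lies on the minus strand of chromosome 6 from 33998984 to 34024189. It had 18.3, 19.7 and 25.6 CPM in crispants, against 21.1, 24.4 and 11.3 CPM in mock control embryos. Mock control replicate 3 was the lowest of all 6 libraries, as for *kdrl*. For *tie1* the log2FC was 0.16 (standard error 0.32, 95% interval -0.57 to 0.90), and -0.08 without that library.

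*tek*, which encodes the angiopoietin receptor Tie2, lies on the plus strand of chromosome 5 from 474044 to 497866. It had 14.8, 19.1 and 7.96 CPM in crispants, against 10.03, 21.3 and 11.1 CPM in mock control embryos. Replicates of 1 group differed by more than the groups did. Its log2FC was -0.02, and its standard error of 0.41 was the largest of the 10 genes. Its 95% interval from -0.97 to 0.93 leaves room for almost the minimum fold change of the call in either direction.

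Both junction genes had lower mean levels in crispants, and neither passed the test. *cdh5*, which encodes VE-cadherin of the endothelial adherens junction, lies on the plus strand of chromosome 7 from 44106370 to 44180006. It had 40.2, 39.6 and 40.3 CPM in crispants, against 56.0, 49.998 and 40.9 CPM in mock control embryos. All 3 crispants lay below all 3 mock control libraries, by a narrow margin for mock control replicate 3. It was the only 1 of the 10 genes whose groups did not overlap, and 5.44% of all genes tested had crispants below mock control embryos in this way. For *cdh5* the log2FC was -0.29 (standard error 0.19, 95% interval -0.74 to 0.15), with an adjusted p of 0.999 by edgeR's quasi-likelihood test. Without mock control replicate 3 it was -0.39 (95% interval -0.73 to -0.05), with an unadjusted p of 0.0302 and an adjusted p of 0.388 in the same edgeR test. These 2 genes, *cdh5* and *fli1a*, were the only 2 of the 10 at an unadjusted p below 0.05 without that library, where 5.28% of all genes tested were lower and 5.93% higher. A gene on the same strand that overlaps *cdh5*, *bean1*, had 4 to 15 counts per library, beside 1169 or more for *cdh5*. Whether reads in the overlap were left out of the *cdh5* count was not tested.

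*pecam1*, an adhesion molecule at contacts between endothelial cells that in mammals is also on platelets and leukocytes, lies on the plus strand of chromosome 3 from 59491910 to 59525948. It had 9.04, 9.05 and 11.2 CPM in crispants, against 9.97, 13.6 and 22.2 CPM in mock control embryos. The groups overlapped through 1 library of each, and mock control replicate 3 was far above the rest. At -0.64, its log2FC was the furthest from 0 among the 10 genes (standard error 0.34, 95% interval -1.41 to 0.13). Its unadjusted p of 0.0923 and adjusted p of 0.996 in edgeR's quasi-likelihood test did not pass. It was -0.25 without mock control replicate 3, and without mock control replicate 1 it was -0.87 with an unadjusted p of 0.0298 and an adjusted p of 0.838 in the same edgeR test, where 3.15% of all genes tested were lower.

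*egfl7*, which encodes a secreted protein of the vessel matrix that shapes the lumen, lies on the minus strand of chromosome 21 from 7666975 to 7703748. It had 14.2, 17.6 and 9.85 CPM in crispants, against 8.98, 13.0 and 15.8 CPM in mock control embryos. The ranges of the groups overlapped over most of their width. For *egfl7* the log2FC was 0.14 (standard error 0.32, 95% interval -0.60 to 0.88), and 0.35 without mock control replicate 3. The microRNA annotated within it, dre-mir-126b, had 0 to 6 counts per library in these polyA selected libraries, too few to compare.

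**Figure D3:**
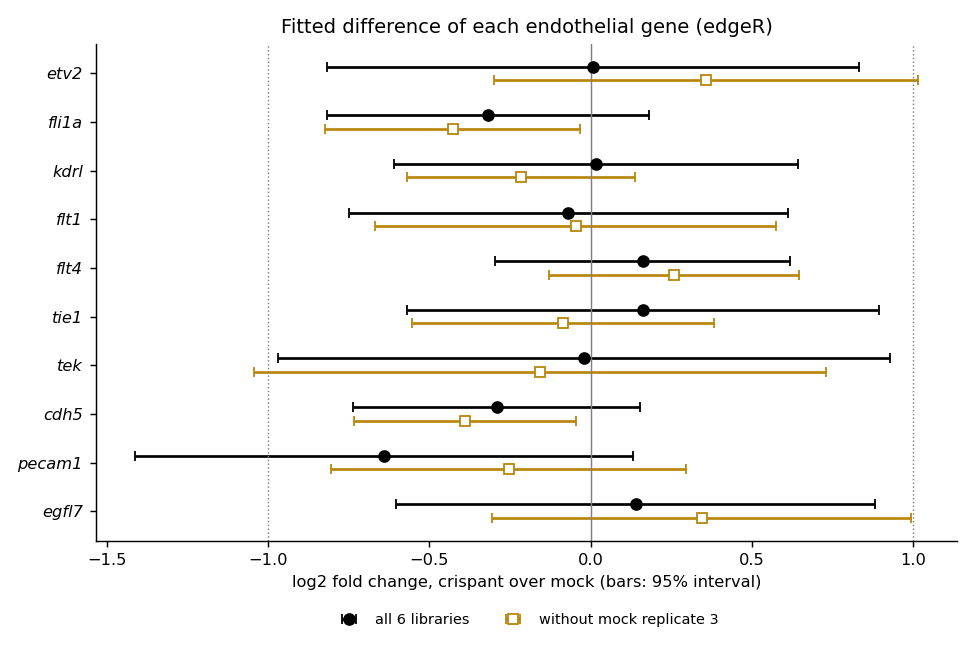
Fitted log2 fold change (log2FC) of each endothelial gene, crispant over mock control, with 95% intervals from edgeR, for all 6 libraries (black circles) and without mock control replicate 3 (open gold squares). Dotted lines mark a log2FC of 1 in either direction. With all 6 libraries every interval includes 0, and without mock control replicate 3 those of cdh5 and fli1a lie below 0 before adjustment for the number of genes tested.

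With all 6 libraries, of the 10 intervals only that of *pecam1* reached past a log2FC of 1 in either direction, on the lower side. The interval of *flt4* ran from 0.815-fold to 1.53-fold and that of *tek* from 0.511-fold to 1.90-fold. With 3 libraries a group, differences within these intervals remain possible for these genes.

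The genes whose groups lay apart changed with the libraries used. Without crispant replicate 1 *flt4* was above and *cdh5* below (9.46% and 8.2% of all genes tested lay that way), and without crispant replicate 2 only *flt1* lay apart, below (12% and 8.52%). *cdh5* and *pecam1* were below without crispant replicate 3 (9.93% above and 9.05% below over all genes) and without mock control replicate 1 (10.5% and 10%). Leaving out mock control replicate 2 kept *cdh5* alone below (10.3% and 10.4%). With mock control replicates 1 and 2 only, *cdh5*, *fli1a* and *kdrl* were below and *flt4* above, where 14.3% of all genes lay below and 15.1% above.

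The 10 genes did not rise or fall together from library to library. Among crispants, replicate 2 had the highest level of *etv2*, *fli1a*, *flt1*, *tek* and *egfl7*, while replicate 3 had the highest level of *flt4*, *tie1* and *pecam1*. *cdh5* was nearly equal in crispants at 40.2, 39.6 and 40.3 CPM, and *kdrl* was at 41.7 CPM in both replicates 2 and 3. Mock control replicate 3 differed from the other mock control libraries in both directions. Relative to the mean of mock control replicates 1 and 2 it had 0.526 times the CPM of *kdrl* and 0.499 times that of *tie1*, but 1.80 times that of *etv2* and 1.89 times that of *pecam1*. These differences followed gene length in part. On log2(CPM + 1), the 3 shortest of the 10 genes, *egfl7*, *etv2* and *pecam1* with lengths of 1369, 1453 and 2374 bases, lay 0.50, 0.87 and 0.88 above the mean of mock control replicates 1 and 2. Of the other 7 genes, *flt4* and *flt1* lay 0.23 and 0.03 above and the remaining genes lay 0.36 to 0.94 below. Across the 10 genes Pearson's r between this deviation and log2 length was -0.72, and across all 20812 genes tested it was -0.32. Genes of 1 library are not independent replicates, so these are descriptions. Whether length has a part in the crispant comparison was not tested.

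**Figure D4:**
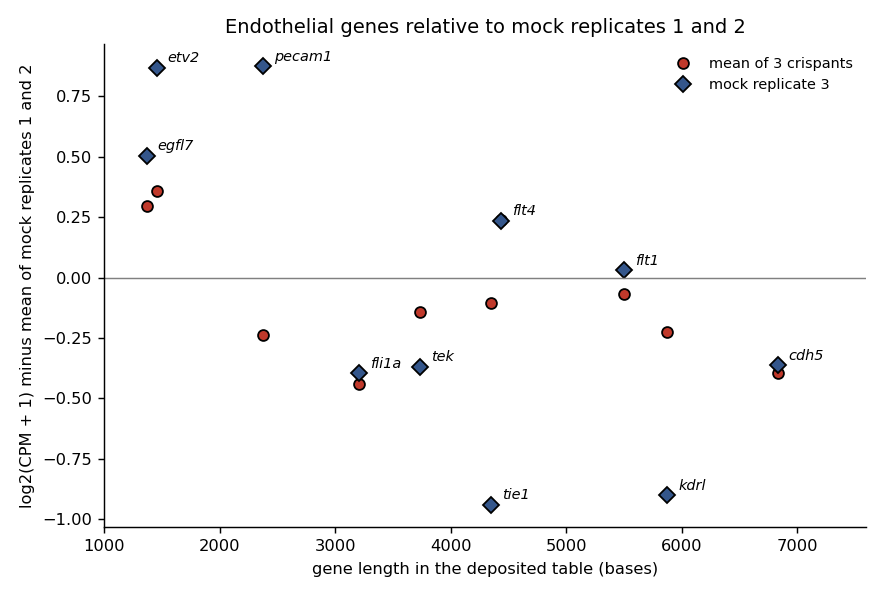
Deviation of each endothelial gene from the mean of mock control replicates 1 and 2, in log2(CPM + 1), against the gene length of the deposited table in bases. Red circles are the mean of 3 crispants and blue diamonds are mock control replicate 3. Mock control replicate 3 ranges from 0.94 below (tie1) to 0.88 above (pecam1), and the crispant means stay between 0.44 below (fli1a) and 0.36 above (etv2).

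Further vessel genes were taken from 6 lists with 77 entries, of which 74 matched the table and 72 passed the filter. *npas4l*, *ets1* and *vegfd* were not matched and were not analysed here. None of the 72 was called by edgeR's test, which called 0% of all 20812 genes tested, so this does not set them apart. At an unadjusted p below 0.05, 2 were higher and 3 lower in crispants, or 2.78% and 4.17%, close to the 3.01% and 2.47% of all genes tested. Groups did not overlap for 8 of the 72 with crispants above and 8 with crispants below. Both shares were larger than the 6.5% and 5.44% over all genes tested, and this difference was not tested. The median log2FC of the 72 was -0.02.

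Transcription factors of angioblasts and endothelium had a median log2FC of -0.09 over 15 tested genes, and -0.019 without mock control replicate 3. *sox7*, a SoxF factor of early endothelium, had 18.8, 23.6 and 14.5 CPM in crispants, against 11.8, 12.8 and 13.0 CPM in mock control embryos. Crispants were above mock control embryos without overlap, with a log2FC of 0.60 (standard error 0.26) and an adjusted p of 0.9 by edgeR's quasi-likelihood test. *tal1* and *lmo2*, partners in the shared programme of blood and endothelial precursors, had log2FC values of -0.66 (standard error 0.34) and -0.37 (standard error 0.41). Both had overlapping groups, and without mock control replicate 3 the values were -0.44 and -0.01.

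For VEGF ligands, co-receptors and signalling genes the median was -0.02 over 10 tested genes, and -0.044 without mock control replicate 3. With all 6 libraries none had an unadjusted p below 0.05. The ligand genes had small log2FC values, all below 0. *vegfaa* had 13.3, 11.7 and 11.2 CPM in crispants, against 14.2, 12.5 and 13.4 CPM in mock control embryos, a log2FC of -0.15 (standard error 0.24). For *vegfab* and *vegfc* the values were -0.28 (standard error 0.28) and -0.13 (standard error 0.30), or -0.067 and -0.12 without mock control replicate 3. *vegfc* was lower without overlap, with 3.39, 3.35 and 3.18 CPM in crispants, against 3.63, 3.62 and 3.57 CPM in mock control embryos. *kdr*, the second receptor gene for Vegfa beside *kdrl*, had 27.7, 18.4 and 17.9 CPM in crispants, against 10.9, 14.5 and 1.89 CPM in mock control embryos. All crispants lay above all mock control libraries, and mock control replicate 3 was far below the others. For *kdr* the log2FC was 1.23 (standard error 0.61, adjusted p = 0.978 by edgeR's quasi-likelihood test), and it was 0.76 without that library (adjusted p = 0.323). The co-receptor gene *nrp1a* had crispants above without overlap. Its log2FC was 0.26 (standard error 0.21), also smaller without mock control replicate 3 at 0.12.

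The list of angiopoietin ligands had a median of 0.44 over 4 tested genes, and 0.54 without mock control replicate 3. Summed over its 5 matched genes, the level was 112.7 to 139.3 CPM in crispants, against 78.2 to 110.1 CPM in mock control embryos, without overlap. *angpt1*, the activating Tie2 ligand, was at 9.74, 8.92 and 10.2 CPM in crispants, against 11.2, 8.05 and 8.93 CPM in mock control embryos. It hardly differed, with a log2FC of 0.04 (standard error 0.26). *angpt2b*, a ligand of the same receptor that in mammals can oppose angiopoietin 1, had 6.27, 5.25 and 4.71 CPM in crispants, against 2.60, 2.97 and 4.45 CPM in mock control embryos. The crispants lay above all mock control libraries, with a log2FC of 0.70 (standard error 0.34, adjusted p = 0.978 by edgeR's quasi-likelihood test). Without mock control replicate 3 the value was 0.97, with an adjusted p of 0.282 in the same edgeR test. DESeq2 gave 0.70 with an adjusted p of 0.726. Limma-voom with sample quality weights gave 0.99 with an adjusted p of 0.0487, just short of the minimum fold change.

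Arterial genes lay lowest among the vessel lists, with a median of -0.42 over 10 tested genes and 9 of them below 0. The summed level of this list was 566 to 673 CPM in crispants. In mock control replicates 1, 2 and 3 the sum was 1013, 952 and 486 CPM, so the groups overlapped. At an unadjusted p below 0.05, 2 of the 10 genes were lower and none higher. Without mock control replicate 3 the median was -0.61 and 5 were lower at that limit, where 5.28% of all genes tested were. None was called without that library, where 0.0935% of all genes tested were called. *aqp1a.1*, a water channel gene of arterial endothelium and of red blood cells, had 32.6, 37.6 and 40.3 CPM in crispants, against 66.0, 61.2 and 172 CPM in mock control embryos. The groups did not overlap. Its log2FC was -1.44 (standard error 0.40), with an unadjusted p of 0.00637 and an adjusted p of 0.612 by edgeR's quasi-likelihood test. Without mock control replicate 3 it was -0.77 with an adjusted p of 0.16 in the same test. DESeq2 gave -1.43 with an adjusted p of 0.0857. Limma-voom with sample quality weights gave -0.88 with an adjusted p of 0.0279, short of the minimum fold change. With limma-voom 2.31% of all genes tested had an adjusted p no higher than 0.05. *hey2*, a Notch effector of arterial fate that the heart also uses, had 6.84, 8.37 and 5.19 CPM in crispants, against 8.75, 11.6 and 15.8 CPM in mock control embryos. It too was lower without overlap, with a log2FC of -0.83 (standard error 0.33, adjusted p = 0.851 by edgeR's test), and -0.57 without mock control replicate 3.

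Venous and lymphatic genes had a median of 0.12 over 10 tested genes, and 0.20 without mock control replicate 3. Of the 10, 6 had a log2FC above 0 and 4 below. Groups did not overlap for 1 gene with crispants above and 1 with crispants below (6.5% and 5.44% over all genes tested). Without mock control replicate 3, 2 were higher and 2 lower at an unadjusted p below 0.05 in edgeR's test. Of all genes tested, 5.93% were higher and 5.28% lower at that limit. *stab2*, a scavenger receptor gene of venous endothelium, had 118, 114 and 152 CPM in crispants, against 76.5, 90.2 and 79.2 CPM in mock control embryos. Crispants were above without overlap, with a log2FC of 0.64 (standard error 0.20), an unadjusted p of 0.0109 and an adjusted p of 0.682 by edgeR's quasi-likelihood test. The related *stab1* had a log2FC of 0.67 (standard error 0.30) with overlapping groups, and 0.52 without mock control replicate 3. Arterial and venous lists were not tested against each other.

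For the 23 endothelial junction and surface genes the median was 0.15, and 0.061 without mock control replicate 3. *s1pr1*, a receptor for sphingosine 1-phosphate that steadies vessel sprouts, had 68.7, 51.9 and 53.9 CPM in crispants, against 86.3, 79.1 and 127 CPM in mock control embryos. It was lower without overlap, with a log2FC of -0.74 (standard error 0.24, adjusted p = 0.71 by edgeR's quasi-likelihood test), and -0.49 without mock control replicate 3. *plxnd1*, a semaphorin receptor gene that guides sprouts between somites, had a log2FC of 0.74 (standard error 0.35) without overlap, and 0.51 without that library.

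Markers of several other cell types had lower medians than the endothelial genes. Median log2FC values were -1.12 over 12 primitive erythroid rows, -0.82 over 8 myeloid, -0.80 over 6 heart muscle, -0.68 over 8 fast skeletal muscle and -0.49 over 6 neuronal markers. None of these was called by edgeR's test, which called 0% of all genes tested. Without mock control replicate 3 these medians were -0.39, -0.56, -0.39, -0.36 and -0.39. Epidermal markers had a median of -0.09, which turned to 0.12 without that library, and mural cell markers had -0.15 and -0.16. In mock control replicate 3 the erythroid, myeloid, fast muscle, heart, neuronal and epidermal sums were the highest of all 6 libraries, and the mural sum was the lowest of the mock control libraries. Of the 7 marker lists, 2 had summed levels that did not overlap. Neuronal markers summed to 551 to 656 CPM in crispants, against 738 to 896 CPM in mock control embryos. Fast muscle markers summed to 13124 to 14865 CPM in crispants, against 15053 to 30471 CPM in mock control embryos. The sums of the other marker lists overlapped. The erythroid markers summed to 1207 to 2411 CPM in crispants, against 1650 to 7712 CPM in mock control embryos. Myeloid markers summed to 84.8 to 104.2 CPM in crispants, against 103 to 150.1 CPM in mock control embryos. All matched markers of the 7 lists had counts in at least 1 library, as the label of whole embryo implies. *tal1*, *lmo2*, *aqp1a.1*, *pecam1* and *hey2* belong in part to these other cells, and the part of such cells in their values was not tested. Nor was it tested for the other genes of the vessel lists, the arterial list included, so these lists are not limited to vessel cells. No test was made between the endothelial genes and these lists.

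**Figure D5:**
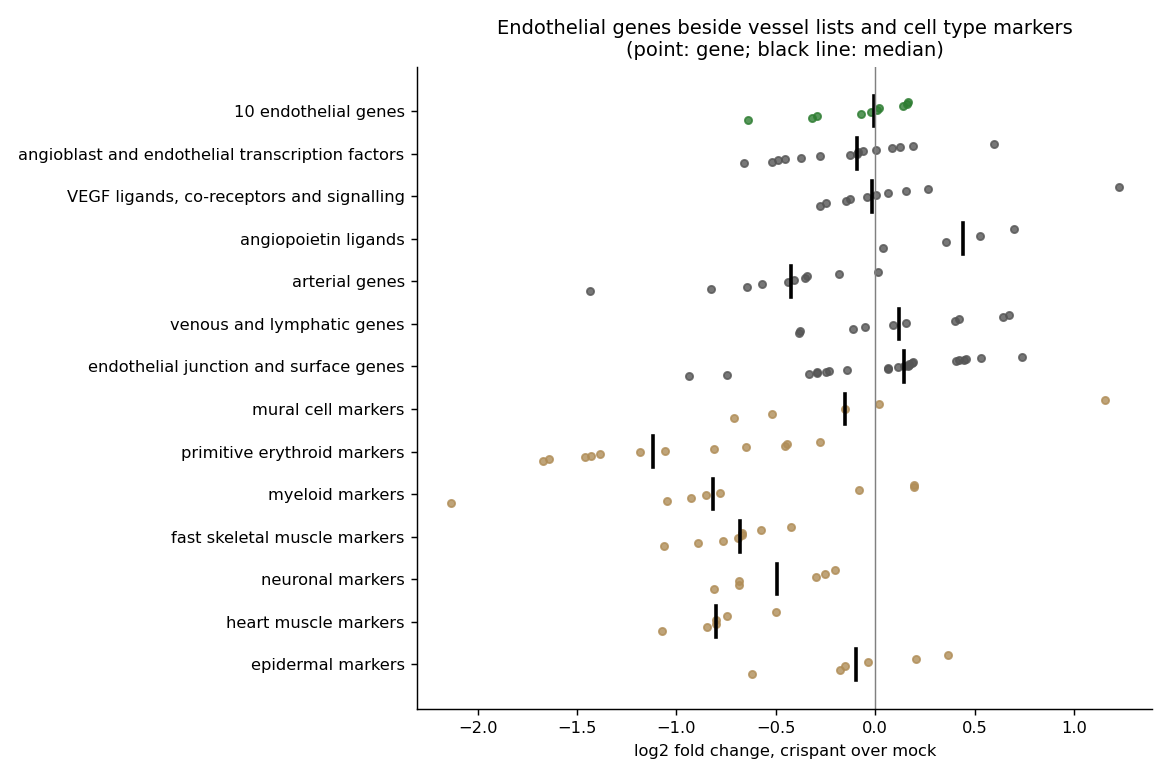
Log2FC, crispant over mock control, of the 10 endothelial genes (green), the genes of 6 vessel lists (grey) and the markers of 7 other cell types (brown), with the median of each as a black line. The endothelial genes lie between -0.64 and 0.16 with a median of -0.01, the arterial list has a median of -0.42, and the primitive erythroid markers have a median of -1.12.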

How the data were processed

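The authors' pipeline (Novogene) aligned paired-end reads to GRCz10/danRer10 with HISAT2, and the authors deposited raw counts per gene. The counting tool and annotation release are not given in the sources used here. The deposited FPKM values divide counts by gene length and a library total scaled with DESeq2 size factors. The authors also deposited a mean normalized signal per group, with log2 fold changes and p-values of their own DESeq2 comparison, which were not used. Of the columns holding 1 library's values, 0 went unused. Groups and replicate numbers came from the sample titles; the stage and embryo classes came from the study's methods.

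Counts were analysed in R 4.3.3 with edgeR 4.0.16 (TMM, filterByExpr with a minimum count of 10, glmQLFit and glmQLFTest, no covariate). Standard errors and 95% intervals were derived from the fold change and F statistic. Alternatives were DESeq2 size factors, no filter, DESeq2 1.42.0, limma-voom (limma 3.58.1) with sample quality weights, the replicate number as a block, a call without the fold change, and leaving out each library in turn. The functions were tested on simulated counts. The 10 genes, the 13 further lists and the tests were chosen with earlier results of these data known. All 10 genes are named. Of each vessel list, the genes with the 2 smallest p-values are named, with *kdr*, *vegfaa*, *vegfab*, *vegfc*, *tal1*, *lmo2* and *angpt1*. The values of 1 gene that this rule names are not reported here. Promoter sequences were not analysed here.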

Additional observations from a re-analysis of the deposited data

How the results depend on the processing

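None of the 10 endothelial genes was called under any alternative run. Over all genes tested, edgeR called 0 (0%), DESeq2 160 (0.769%) and limma-voom with sample quality weights 324 (1.56%). Without mock control replicate 3, edgeR called 20 (0.0935%). With shares this small, a count of 0 among 10 genes does not set them apart. The number lower at an unadjusted p below 0.05 was 3 with limma-voom (*cdh5*, *fli1a* and *pecam1*; 9.24% of all genes tested), and it ran from 0 to 2 with each library left out. The median log2 fold change of the 10 genes was -0.28 with limma-voom, and from -0.22 to 0.09 with each library left out. The number of genes with groups apart ran from 0 to 1 for crispants above and from 1 to 3 for crispants below; without mock control replicate 3, *cdh5*, *fli1a* and *kdrl* were below and *flt4* above, where 14.3% and 15.1% of all genes tested were. The log2 of the summed level in crispants over mock control embryos was -0.09, and from -0.16 to -0.02 with each library left out.

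The sign changed under limma-voom for *kdrl* (-0.29) and *tie1* (-0.26). With each library left out, signs changed for *kdrl* (-0.22 to 0.19), *etv2* (-0.28 to 0.36), *tie1* (-0.085 to 0.39), *tek* (-0.29 to 0.40), *flt1* (-0.25 to 0.045), *egfl7* (-0.055 to 0.35) and *angpt1* (-0.064 to 0.18). *cdh5*, *fli1a* and *pecam1* stayed below 0 and *flt4* above 0 in every alternative run. The cause of these changes was not tested. With the replicate number as a block the median of the 10 genes was 0.02 and none was called. Deviations of same-numbered libraries from their group means had r = 0.25, -0.09 and -0.18 across genes. With only 3 libraries a group, such values cannot decide whether the numbers pair the libraries.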
